A study of Xenopus laevis with 8 samples.

Results

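The genes described here are those of muscle differentiation and contraction in neurulae of the frog *Xenopus laevis*. They were chosen by gene symbol alone: probe sets listed with 1 gene whose symbol starts with myod, myf, mef2, myh, myl, actc, acta, actn, tnn, tpm, des, ckm, myoz, ldb3, tcap, ttn, neb, mymk, pax7 or tbx6, without mylk, mylip and desi. This rule found 127 probe sets of 80 genes among the 32635 probe sets and 11303 annotated genes of the array. The study hybridised 8 Affymetrix arrays that fall into 4 groups with 2 arrays in each, namely the injected and the uninjected sides of xSuv4-20h double morphants and the injected and the uninjected sides of control morphants. Double morphants received morpholinos, antisense oligonucleotides that block translation, against the mRNAs of both frog Suv4-20h genes (h1 and h2), whose products place di- and trimethylation on lysine 20 of histone H4. Control morphants received a control morpholino. In both kinds of embryo the morpholinos were injected on one side only, so that the uninjected side of the same embryos serves as its internal comparison. The labels state 40 ng in neighbouring blastomeres of 1 side. The methods of the study give this dose for injections into animal or vegetal blastomeres at the 8-cell stage. For the array samples they state a larger dose in 1 blastomere at the 2-cell stage, and nothing in the deposited values decides between them. Embryos were cut along the midline, sides of several embryos were pooled for each sample, and the 2 replicates are independent experiments. Each side of an embryo holds all germ layers, so that fewer muscle precursors and less RNA in each of them cannot be told apart in these values.

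Skeletal muscle of the early frog embryo forms from paraxial mesoderm, which is first marked by T-box factors such as Tbx6 and then by the myogenic factors MyoD and Myf5. Together with Mef2 proteins these switch on the genes of the sarcomere, the contractile unit. Its thin filaments are built of actin, tropomyosin and the troponin complex, its thick filaments of myosin heavy and light chains. The thin filaments are anchored at Z-discs by alpha-actinins, and Z-discs are linked by the intermediate filament protein desmin. Relatives of several of these proteins (non-muscle myosins and their light chains, cytoplasmic tropomyosins and actinins) serve the cytoskeleton of most cells. The 80 genes were therefore read in these roles. This frog is allotetraploid, and a suffix .L or .S tells on which of both subgenomes (long or short) a copy lies.

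Values are GCRMA expression values on the log2 scale, on which a difference of 1 is a factor of 2. They run from a floor near 2.14 to 15.35 over all probe sets, and 31.7% of them lie under 2.5. Of the 80 genes, 43 had a mean of at least 4 in at least 1 group and were tested among 8219 genes in all, each through its most variable probe set. The 37 others stayed at or near the floor, with a highest value of 3.53 on any array for tpm2.L, a tropomyosin. Of these 37, 28 never reached 2.5, and 16 had the same value on all 8 arrays. Genes near the floor included the heart forms of troponin (tnni3, tnnt2), the myosin light chains myl2, myl3 and myl4 and the sarcomeric alpha-actinin actn2. Others were the late myogenic factor myf6, the satellite cell factor pax7 and the Z-disc proteins myoz1, myoz2 and tcap. The tested genes comprised 18 of 46 genes of the sarcomere and muscle creatine kinase, 7 of 12 genes of transcription factors, and 18 of 22 cytoskeletal or broadly expressed genes. The last group holds ckmt1b, a mitochondrial creatine kinase, and tpmt, a thiopurine methyltransferase that the rule takes only for the start of its symbol. A gene near the filter passes through the groups where it is high, which holds for actn3.L, ldb3.S, tnnc2.L and tnnt3.S, and for myh9.S, whose mean of 4.05 on injected sides of double morphants is its only one above 4. ldb3.S and tnnt3.S have a mean above 4 only on uninjected sides of double morphants. Levels of different probe sets cannot be set against each other.

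**Figure D1:**
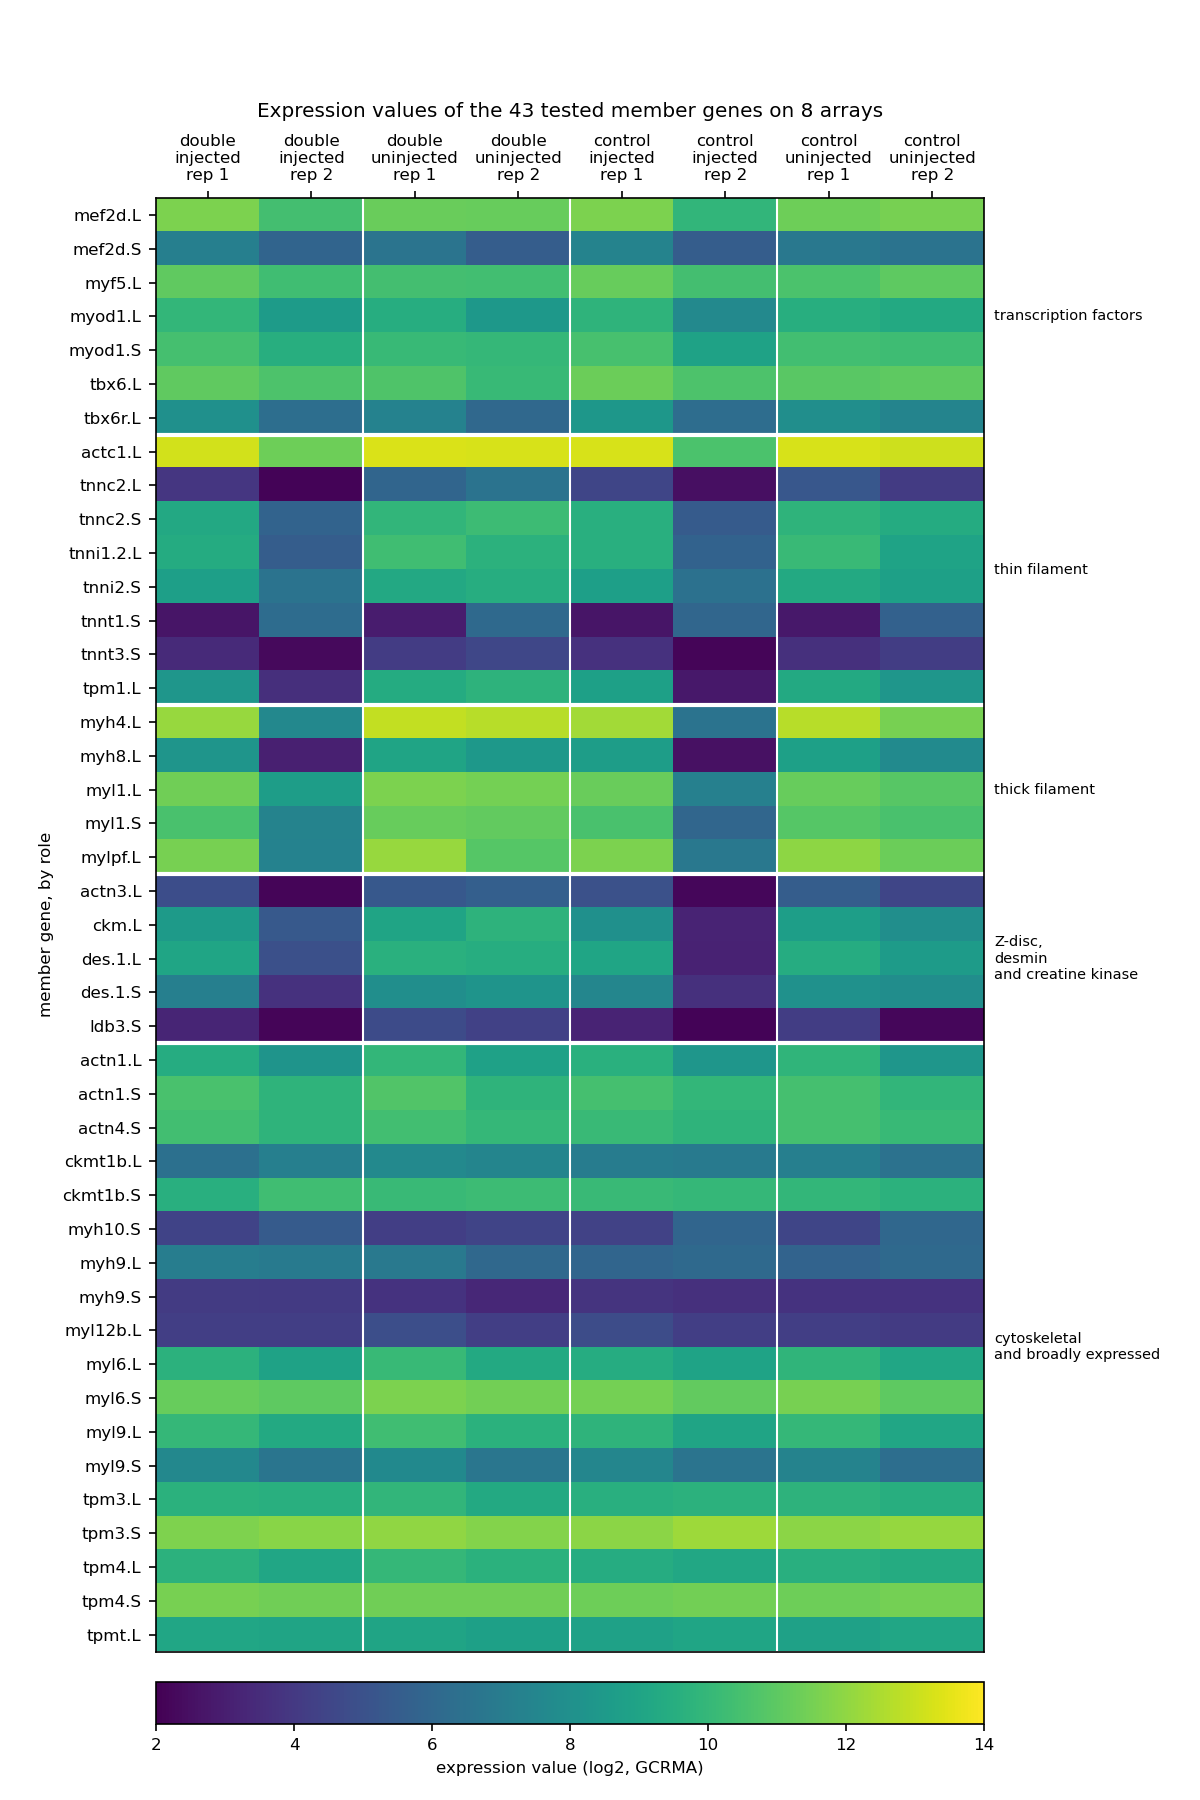
Expression values (colour, log2) of the 43 tested genes in rows, by role, on the 8 arrays in columns, double morphants to the left of control morphants and injected to the left of uninjected sides. Of the 18 sarcomere and creatine kinase genes, 17 are lowest on the injected arrays of replicate 2, and tnnt1.S differs between replicates in all groups.

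The first question was whether the injected sides of double morphants differed from their uninjected sides. No muscle or contractile gene passed the threshold of the study, a local false discovery rate under 0.2 in limma, where 1.62% of all genes tested were called. At an unadjusted p under 0.05, 1 of the 43 had a positive difference (myh9.S, a non-muscle myosin heavy chain) and 2 had negative ones (tnnc2.L and ldb3.S), all 3 of them near the filter and passing it only through groups where they are high, and none had a Benjamini-Hochberg adjusted p under 0.05. Of all 8219 genes, 963 were higher and 782 lower at that unadjusted p, and 0 passed by adjusted p. The sizes among the members were nevertheless large. All 18 sarcomere and creatine kinase genes had negative differences with a median of -2.33, and 17 of them were beyond -1, against a median of 0.04 and 5.97% beyond -1 over all genes. Their standard errors were 0.61 to 2.35, since the replicates differed. Of the 17, actn3.L, ldb3.S, tnnc2.L and tnnt3.S passed the filter only through uninjected sides, where they are high. In control morphants no member was called either, where 3.98% of all genes were, and none of the 43 reached an unadjusted p under 0.05. Of all 8219 genes, 195 were higher and 227 lower in control morphants at that p. The median of the 18 was -1.99 there, with 15 beyond -1, against a median of 0.04 and 2.73% beyond -1 over all genes. Leaving out 1 injected control array leaves 1 in that group, so that calls then rest on the array kept. The median of the 43 members was -1.06 without the injected control array of replicate 1 and 0.0264 without that of replicate 2. Each gene named next had its lowest value on the injected control array of replicate 2, the one kept there. Without the injected control array of replicate 1, 6 members were called lower in control morphants (actc1.L, ckm.L, des.1.L, myl1.L, myl1.S and myod1.S), 5 of them of the sarcomere or creatine kinase, where 1.8% of all genes were called lower.

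Since both sides came from the same embryos, the test in double morphants was repeated within pairs of sides. With this block the local false discovery rate again called none of the members, whereas 4 were lower by limma's Benjamini-Hochberg adjustment: tnnc2.L (adjusted p = 0.0297), ldb3.S (adjusted p = 0.0237), actn1.L (adjusted p = 0.0294) and myl6.S (adjusted p = 0.0459). In the same test 12.5% of all genes were lower, so that the share of the members was below that of all genes. This combination of block and threshold was chosen after seeing the data. tnnc2.L, one copy of the calcium-binding subunit of fast troponin, had 3.89 and 2.14 on injected and 5.91 and 6.56 on uninjected sides of double morphants (replicates 1 and 2 in each pair of values), against 4.51 and 2.48 on injected and 5.26 and 4.10 on uninjected sides of control morphants. ldb3.S, a PDZ and LIM protein of the Z-disc, had 3.26 and 2.14 on injected and 4.73 and 4.33 on uninjected sides of double morphants, against 3.18 and 2.14 on injected and 4.20 and 2.21 on uninjected sides of control morphants. Both genes were thus lower on the injected side of double morphants in each replicate, with 2.14, the floor of the scale, in replicate 2. Both passed the filter only through uninjected sides, ldb3.S only through those of double morphants, which favours a lower injected side. ldb3.S also had 2.14 on the injected and 2.21 on the uninjected control array of replicate 2. The floor therefore limits its difference there too. In actn1.L, a non-muscle alpha-actinin, and myl6.S, a non-muscle myosin light chain, the sides of double morphants differed by -0.52 and -0.63 and by -0.43 and -0.42. In control morphants none of the 43 members passed within pairs at an adjusted p under 0.05, where 0 of all 8219 genes did.

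The values on single arrays are given by role. In the thick filament, all 5 tested genes were low on both injected arrays of replicate 2 and on no other array. mylpf.L, the regulatory light chain of fast muscle myosin, had 11.53 and 7.31 on injected and 12.16 and 10.85 on uninjected sides of double morphants, against 11.65 and 6.82 on injected and 11.96 and 11.29 on uninjected sides of control morphants. myh8.L, a skeletal muscle myosin heavy chain, had 8.24 and 3.06 on injected and 9.03 and 8.39 on uninjected sides of double morphants, against 8.70 and 2.52 on injected and 8.81 and 7.74 on uninjected sides of control morphants. In both genes the injected sides of replicate 2 lay far under the other 6 arrays, in control as in double morphants. myh4.L, a further skeletal heavy chain, had 12.15 and 7.62 on injected and 12.88 and 12.71 on uninjected sides of double morphants, against 12.32 and 6.59 on injected and 12.73 and 11.54 on uninjected sides of control morphants. Its probe set is of the type that shares probes with other transcripts, and signal from other heavy chains may enter it. In both copies of myl1, the essential light chain, the injected control array of replicate 2 was the lowest and that of double morphants the next. myl1.L had 11.39 and 8.70 on injected and 11.64 and 11.49 on uninjected sides of double morphants, against 11.28 and 7.22 on injected and 11.19 and 10.88 on uninjected sides of control morphants. myl1.S had 10.55 and 7.38 on injected and 11.20 and 11.13 on uninjected sides of double morphants, against 10.55 and 5.97 on injected and 10.86 and 10.54 on uninjected sides of control morphants.

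The thin filament gave the same picture in 7 of 8 genes. tpm1.L, the alpha-tropomyosin of striated muscle, had 8.29 and 3.62 on injected and 9.40 and 9.75 on uninjected sides of double morphants, against 8.84 and 2.79 on injected and 9.27 and 8.30 on uninjected sides of control morphants. actc1.L, the actin of heart and early somite muscle, had 13.19 and 11.35 on injected and 13.34 and 13.29 on uninjected sides of double morphants, against 13.26 and 10.62 on injected and 13.27 and 13.07 on uninjected sides of control morphants. Both genes were again lowest on the injected arrays of replicate 2, although actc1.L stayed high on the scale. tnnc2.S, the other copy of fast troponin C, had 9.22 and 5.81 on injected and 9.89 and 10.24 on uninjected sides of double morphants, against 9.57 and 5.44 on injected and 9.80 and 9.40 on uninjected sides of control morphants. tnni1.2.L, a slow form of the inhibitory troponin subunit, had 9.39 and 5.55 on injected and 10.33 and 9.72 on uninjected sides of double morphants, against 9.57 and 5.77 on injected and 10.14 and 8.97 on uninjected sides of control morphants. tnni2.S, the fast form of this subunit, had 8.76 and 6.55 on injected and 9.23 and 9.49 on uninjected sides of double morphants, against 8.76 and 6.47 on injected and 9.27 and 8.83 on uninjected sides of control morphants. In the slow as in the fast form of this subunit, both injected arrays of replicate 2 were the lowest. tnnt3.S, the fast troponin T, had 3.44 and 2.29 on injected and 4.12 and 4.55 on uninjected sides of double morphants, against 3.72 and 2.14 on injected and 3.65 and 4.18 on uninjected sides of control morphants, and so reached the floor on the injected arrays of replicate 2. The exception was tnnt1.S, a slow form of troponin T. It had 2.68 and 6.26 on injected and 2.93 and 6.09 on uninjected sides of double morphants, against 2.69 and 5.95 on injected and 2.78 and 5.71 on uninjected sides of control morphants, and so followed the replicate and not the side.

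Desmin, creatine kinase and the Z-disc genes were lowest on the same arrays in all 5 cases. des.1.L had 9.04 and 4.92 on injected and 9.62 and 9.48 on uninjected sides of double morphants, against 9.08 and 3.14 on injected and 9.41 and 8.58 on uninjected sides of control morphants. des.1.S had 7.19 and 3.70 on injected and 7.93 and 8.23 on uninjected sides of double morphants, against 7.53 and 3.67 on injected and 8.09 and 7.88 on uninjected sides of control morphants. In both copies of desmin the injected arrays of replicate 2 were the lowest of the 8. ckm.L, the muscle creatine kinase that buffers ATP in contracting fibres, had 8.53 and 5.33 on injected and 9.03 and 9.74 on uninjected sides of double morphants, against 8.03 and 3.18 on injected and 8.75 and 7.93 on uninjected sides of control morphants. actn3.L, the alpha-actinin of fast fibres, had 4.85 and 2.18 on injected and 5.28 and 5.62 on uninjected sides of double morphants, against 4.95 and 2.19 on injected and 5.52 and 4.51 on uninjected sides of control morphants. Its injected sides of replicate 2 were at the floor, so that the size of its difference there is limited by the scale.

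Counted over the roles, both injected arrays of replicate 2 lay below the other 6 arrays in 17 of the 18 sarcomere and creatine kinase genes, in 2 of 7 transcription factors and in 4 of 18 cytoskeletal or broadly expressed genes. Over all genes tested this held for 10.5%. Of the 17, actn3.L, ldb3.S, tnnc2.L and tnnt3.S passed the filter only through uninjected sides, where they are high, which favours low injected values. For 5 of these 18 genes (actc1.L, actn3.L, ckm.L, myh8.L and tpm1.L) further probe sets passed the filter, 7 in all, partly with probes shared with those above. In replicate 2 the injected minus uninjected difference of these 7 probe sets was between -5.78 and -1.75 in both kinds of morphant, and in replicate 1 between -1.08 and 0.02.

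**Figure D2:**
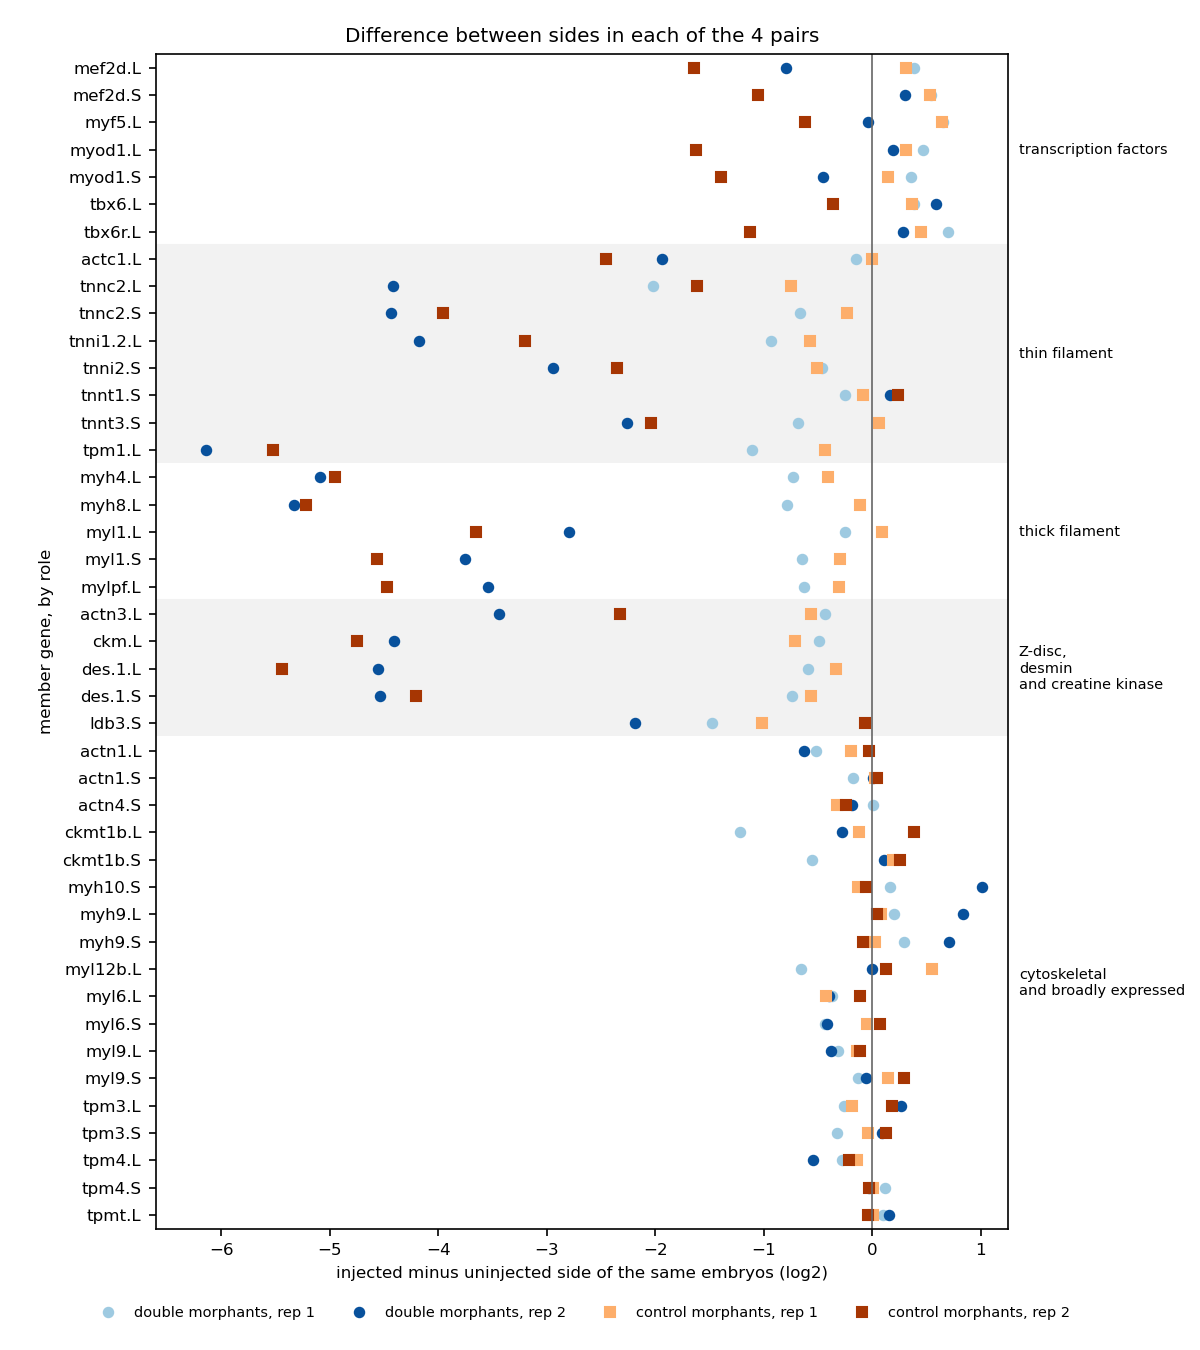
Injected minus uninjected difference (log2, horizontal axis) of each tested gene (rows, by role) in double morphants (circles) and control morphants (squares), replicate 1 in light and replicate 2 in dark colours. The dark symbols of most sarcomere and creatine kinase genes lie far left of the light ones, with medians of -3.96 in double and -3.80 in control morphants.

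By pairs of sides, the median difference of the 18 sarcomere and creatine kinase genes was -3.96 in replicate 2 and -0.66 in replicate 1 of double morphants, against -3.80 in replicate 2 and -0.37 in replicate 1 of control morphants. The medians over all genes were between 0.03 and 0.05 in the same pairs. Because this order was noticed in the values, the following tests were added after seeing the data. Injected and uninjected sides were compared within each replicate, with the double and the control morphants as the 2 pairs, and genes were called at a Benjamini-Hochberg adjusted p under 0.05 in limma. The model held a mean for each side in each replicate and a term for the kind of morphant. Its p-values measure how unevenly double and control morphants differed over these means, pooled over all arrays. Sides were not matched as pairs in it, and the p-values say nothing of further experiments. Within replicate 2, 15 of the 43 members were lower on the injected side and none was higher, where 2.53% of all genes were called lower. All 15 were sarcomere and creatine kinase genes. Their differences were between -5.83 and -2.15, with adjusted p-values of 0.00171 to 0.0119. Among them, actn3.L (-2.88, adjusted p = 0.0119) and tnnt3.S (-2.15, adjusted p = 0.00761) passed the filter only through uninjected sides. Both are high there, which favours a lower injected side. tpm1.L differed by -5.83 (standard error 0.45, adjusted p = 0.00343) and myh8.L by -5.28 (standard error 0.28, adjusted p = 0.00171). The remaining 3 of the 18 were tnnc2.L (-3.02, standard error 0.70, adjusted p = 0.0876), ldb3.S (-1.13, standard error 0.51, adjusted p = 0.24) and tnnt1.S (0.20, standard error 0.17, adjusted p = 0.49). With no filter on low values, 3 of 64 members were called lower, des.1.S, myh8.L and mylpf.L, against 0.253% of all genes.

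Within replicate 1 no member was called in the same limma model, where 0% of all genes were. At an unadjusted p under 0.05, 1 member was higher and 4 were lower, where 444 of all 8219 genes were higher and 496 lower. The share of the members was thus close to that of all genes. The 18 sarcomere and creatine kinase genes had differences between -1.39 and -0.08 there, all negative, with a median of -0.48. Over all genes 46.5% were negative and the median was 0.03. The lowest of the 18 were tnnc2.L (-1.39) and ldb3.S (-1.25). Like actn3.L and tnnt3.S, they passed the filter only through uninjected sides, which favours a lower injected side. The fitted difference of tpm1.L was -0.77 (standard error 0.45, adjusted p = 0.533) and that of myh8.L -0.45 (standard error 0.28, adjusted p = 0.552).

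The effect of side differed between the replicates in 5 members, all with a larger fall in replicate 2, where 0.243% of all genes were called lower by this test of the difference in limma. These were myh8.L (-4.82, standard error 0.40, adjusted p = 0.025), myh4.L (-4.45, standard error 0.50, adjusted p = 0.0397), tnnc2.S (-3.75, standard error 0.40, adjusted p = 0.0349), des.1.S (-3.72, standard error 0.29, adjusted p = 0.025) and mylpf.L (-3.53, standard error 0.35, adjusted p = 0.0309). Several others had differences of the same size and missed the threshold, among them tpm1.L (-5.06, adjusted p = 0.058) and des.1.L (-4.54, adjusted p = 0.0615). The count of 5 depended on single arrays. It did not hold in most of the runs that left out 1 array, which leaves 1 for that side of that replicate. It was smaller in most of them and larger without the uninjected control array of replicate 2. Without either injected control array the count over all genes was smaller too. With no filter on low values no member was called, where 0 of all 10273 genes were.

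**Figure D3:**
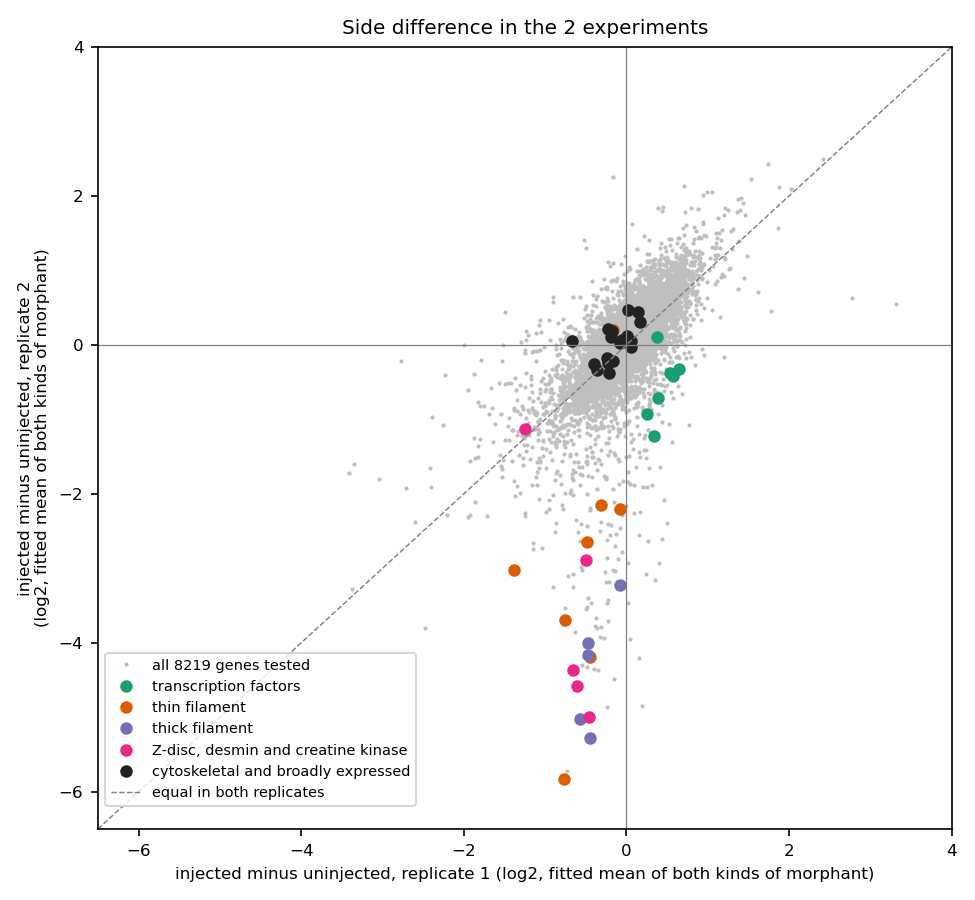
Fitted injected minus uninjected difference (log2) in replicate 1 on the horizontal and in replicate 2 on the vertical axis, as the mean of both kinds of morphant. Grey points are all 8219 genes and coloured points the 43 members by role, and the dashed line marks equal differences. Most sarcomere and creatine kinase genes lie far under the line, down to -5.83 in replicate 2, while cytoskeletal genes lie near 0 in both.

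Of the transcription factors upstream of the sarcomere, none of the 7 tested was called in the side comparisons by the main rules. These were the local false discovery rate for group means and the adjusted p within and between replicates. Of all genes, 1.62% were called in double and 3.98% in control morphants by group means. Within replicate 1 it was 0% and within replicate 2 it was 2.83%. The absence of calls among 7 genes by these rules is thus close to that background. At a local false discovery rate under 0.2, the test of the difference between replicates called mef2d.L, mef2d.S, myf5.L, myod1.S and tbx6r.L lower. Their differences were between -1.565 (mef2d.L) and -0.916 (mef2d.S), where 397 of all 8219 genes were lower. That test was added after seeing the data, and it did not call myod1.L and tbx6.L. myod1.L, one copy of the master regulator MyoD, had 9.95 and 8.57 on injected and 9.48 and 8.38 on uninjected sides of double morphants, against 9.82 and 7.66 on injected and 9.50 and 9.28 on uninjected sides of control morphants. myod1.S had 10.45 and 9.53 on injected and 10.09 and 9.98 on uninjected sides of double morphants, against 10.49 and 8.90 on injected and 10.35 and 10.29 on uninjected sides of control morphants. Both copies were lowest on the injected control array of replicate 2, and above their uninjected side in replicate 1. myf5.L, the partner of MyoD in muscle determination, had 11.06 and 10.31 on injected and 10.41 and 10.35 on uninjected sides of double morphants, against 11.22 and 10.41 on injected and 10.58 and 11.03 on uninjected sides of control morphants. mef2d.L, a MADS-box cofactor of MyoD, had 11.63 and 10.43 on injected and 11.25 and 11.23 on uninjected sides of double morphants, against 11.65 and 9.90 on injected and 11.34 and 11.55 on uninjected sides of control morphants. mef2d.S had 7.18 and 5.85 on injected and 6.64 and 5.55 on uninjected sides of double morphants, against 7.36 and 5.52 on injected and 6.83 and 6.58 on uninjected sides of control morphants. In all of these the injected side was the higher one in replicate 1. tbx6.L, the T-box factor of paraxial mesoderm, had 11.08 and 10.66 on injected and 10.69 and 10.07 on uninjected sides of double morphants, against 11.28 and 10.64 on injected and 10.92 and 11.00 on uninjected sides of control morphants. tbx6r.L, a relative of tbx6, had 8.02 and 6.33 on injected and 7.32 and 6.05 on uninjected sides of double morphants, against 8.35 and 6.30 on injected and 7.91 and 7.43 on uninjected sides of control morphants.

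**Figure D4:**
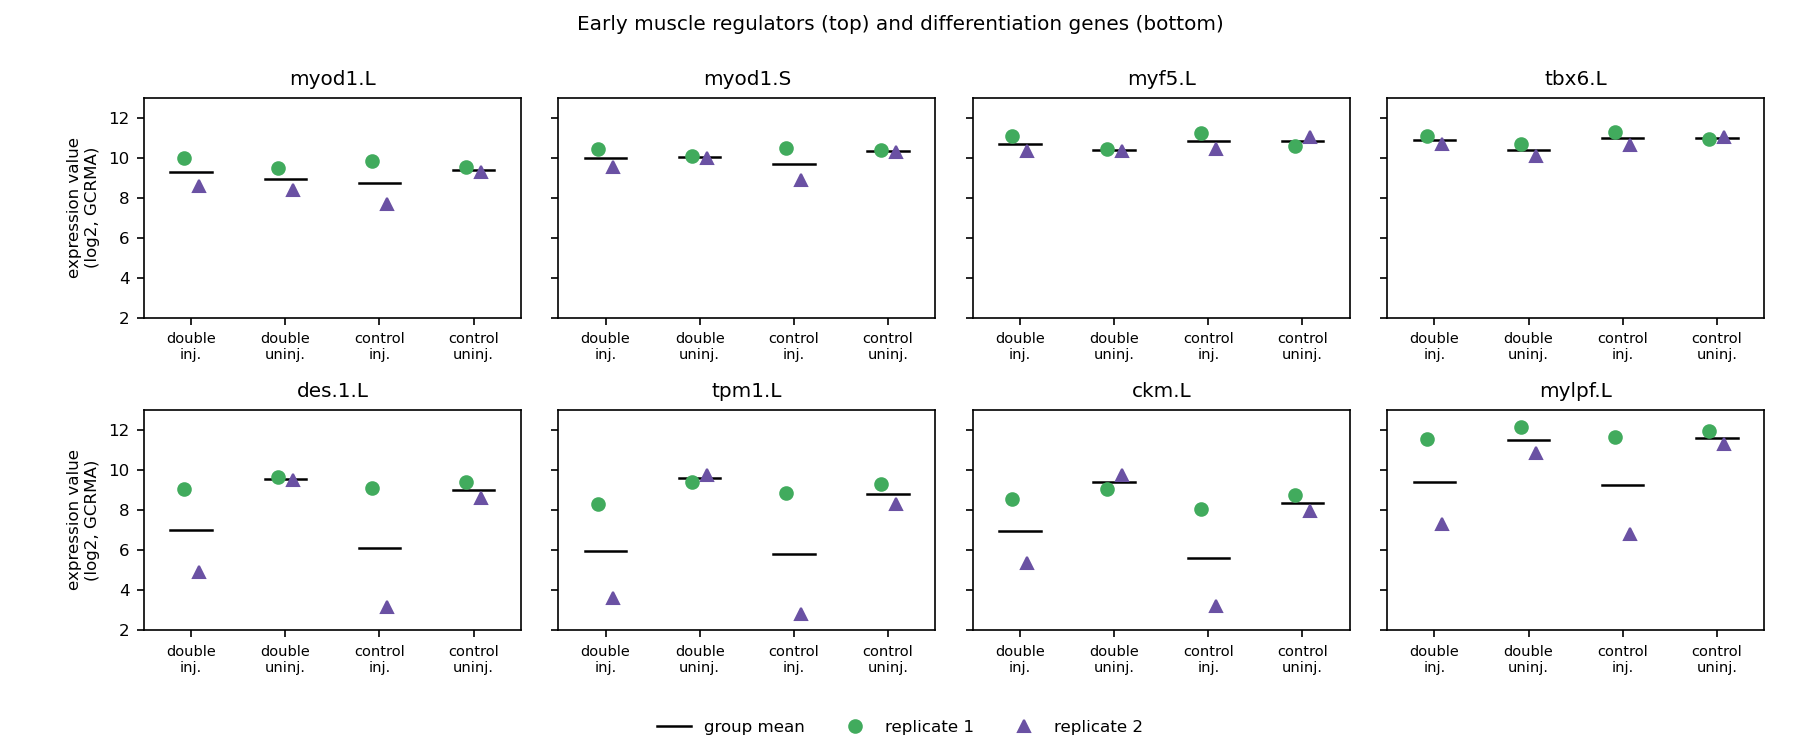
Expression values (log2) of 4 probe sets of early muscle regulators (top row) and 4 of differentiation genes (bottom row) in injected (inj.) and uninjected (uninj.) sides of double and control morphants, circles for replicate 1, triangles for replicate 2 and lines for group means. In the bottom row the triangles of both injected groups lie far under all other points, down to 2.79 in tpm1.L.

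In replicate 1 all 7 probe sets of transcription factors were higher on the injected side in both kinds of morphant, with median differences of 0.47 in double and 0.36 in control morphants. In replicate 2, 4 were higher and 3 lower in double morphants (median 0.19), while all 7 were lower in control morphants (median -1.12). Over all genes the medians were 0.03 to 0.05. Within replicate 2 the fitted differences of both kinds together were between -1.22 (mef2d.L, standard error 0.23, adjusted p = 0.0528 in limma) and 0.11 (tbx6.L, adjusted p = 0.805), and none passed. For myod1.L the fitted difference was -0.71 (standard error 0.39, adjusted p = 0.313), for myod1.S -0.92 (standard error 0.26, adjusted p = 0.121).

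Of the 12 pairs of copies with both members tested, desmin, myl1 and tnnc2 belonged to the sarcomere. Within replicate 2 the fitted differences were -5.0 in des.1.L and -4.37 in des.1.S, -3.22 in myl1.L and -4.16 in myl1.S, and -3.02 in tnnc2.L and -4.20 in tnnc2.S, so that both copies were on the same side of 0 in each pair. Related copies may hybridise to each other's probes, and the pairs are therefore no independent measurements.

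Genes of muscle outside the rule were taken from a list of 96 symbols of paraxial mesoderm factors, membrane, calcium and metabolic genes, of which 40 genes were tested. Within replicate 2, 14 of the 40 were lower on the injected side and none higher (limma, adjusted p under 0.05), against 2.53% of all genes lower, with a median of -0.67 over the list. The genes of membrane excitation were among them: chrna1.L, chrnd.L and chrng.L, subunits of the muscle acetylcholine receptor, differed by -3.66, -3.43 and -2.08. Calcium handling was represented by atp2a1.S, the calcium pump of the sarcoplasmic reticulum (-3.40), and srl.L, its calcium-binding protein sarcalumenin (-4.32). klhl41.L and klhl41.S, a kelch protein of sarcomere assembly (-3.54 and -3.10), flnc.L, muscle filamin (-3.53), mybph.S, a myosin-binding protein (-2.38), and the myosin assembly factors smyd1.L (-3.18) and unc45b.S (-2.39) were also lower. The others were the RNA-binding rbm24.S (-1.64), the glycogen phosphorylase pygm.L (-1.61) and the paraxial protocadherin pcdh8.L (-1.28). Within replicate 1 none of the 40 was called, and their median was -0.02. By the test of the difference between replicates 1 of the 40 passed, srl.L (-3.84, adjusted p = 0.0309). Between group means none of the 40 was called in double morphants, where the median was -0.38. In control morphants 1 was lower, pcdh8.L (-0.96, local false discovery rate 0.0299), where 3.08% of all genes were, which is no more than that background, and the median over the list was -0.29.

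The 18 cytoskeletal or broadly expressed genes showed no called difference between sides by group means or within either replicate. Of all genes, 1.62% were called in double and 3.98% in control morphants, 0% within replicate 1 and 2.83% within replicate 2. The absence of calls among 18 genes is thus close to that background. At an unadjusted p under 0.05, 1 had a positive difference in double morphants and none in control morphants. Of all 8219 genes, 963 were higher and 782 lower at that p in double morphants, and 195 and 227 in control morphants. Within pairs of sides actn1.L and myl6.S were lower in double morphants, as given above. Their differences in double morphants were between -0.75 and 0.58 (median -0.11) and in control morphants between -0.28 and 0.34 (median -0.01). tpm4.S, a cytoplasmic tropomyosin, had 11.53 and 11.38 on injected and 11.41 and 11.41 on uninjected sides of double morphants, against 11.36 and 11.45 on injected and 11.36 and 11.47 on uninjected sides of control morphants. tpm3.S likewise stayed between 11.68 and 12.24 on all arrays. In tpm4.L, a further cytoplasmic form, the injected arrays of replicate 2 were the lowest, with 9.12 in double and 9.18 in control morphants, against 9.39 to 10 on the other 6 arrays. Its fitted difference within replicate 2 was -0.38 (adjusted p = 0.25 in limma).

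Double morphants were then set against control morphants. The effect of injection did not differ between them in any member by the local false discovery rate, where 3.16% of all genes were called, and none reached an unadjusted p under 0.05. Of all 8219 genes, 237 had a positive and 297 a negative difference at that p. The median of this difference was -0.12 over the 43 members and 0.02 over all genes. Single arrays decided the sign of the members' median, which became positive without the injected (0.59) control array of replicate 1, the uninjected (0.145) control array of replicate 2, the injected (0.55) array of double morphants of replicate 2 or their uninjected (0.11) array of replicate 1, and was down to -0.63 without the injected control array of replicate 2. All 7 transcription factors had positive values, between 0.29 (myf5.L) and 0.99 (myod1.L), and 51.6% of all genes did. Between the injected sides themselves no member was called, against 5.6% of all genes. At an unadjusted p under 0.05, 1 member was higher, where 658 of all 8219 genes were higher and 778 lower. The median of the members was 0.05. The largest difference was 1.33 in ckm.L (standard error 1.70). myh9.L, a non-muscle myosin heavy chain, had 7.06 and 6.91 on injected sides of double morphants, against 5.89 and 6.12 on injected sides of control morphants. Of its further probe sets that passed the filter, one had 9.51 and 9.24 against 8.08 and 8.67 on these sides. The brightest had 10.5 and 10.2 against 10.3 and 10.1, and so differed little. The gene was called higher only where an uninjected array of double morphants was left out, where no filter on low values was set or where a theoretical null distribution replaced the empirical one. On uninjected sides no member was called either, against 2.47% of all genes, and none reached an unadjusted p under 0.05. On these sides 128 of all 8219 genes were higher and 125 lower at that p. There, 17 of the 18 sarcomere and creatine kinase genes had positive differences with a median of 0.47, and all 7 transcription factors had negative ones, between -0.98 (tbx6r.L, standard error 0.87) and -0.21 (mef2d.L, standard error 0.63). Over all genes 45.7% were positive and the median was -0.03. ldb3.S and tnnt3.S reached a mean of 4 only on uninjected sides of double morphants (4.53 and 4.34), which favours a positive difference there. Calls of members on the uninjected sides appeared only in some of the runs that left out a single array. Such a run leaves 1 array in a group, and these calls are not read as results. These comparisons share arrays with each other and with those above.

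Replicate 2 was also compared with replicate 1 over all groups. Of the 43 members 2 were higher and 13 lower (limma with replicate as a term, adjusted p under 0.05), where 16.2% of all genes were higher and 15.6% lower. The largest difference among these 15 was that of tnnt1.S, higher by 3.23 (standard error 0.12, adjusted p = 0.000333), the other higher gene being myh10.S, a non-muscle myosin heavy chain (1.08). Lower were 3 sarcomere genes (mylpf.L, tnni1.2.L and ldb3.S), 3 transcription factors (tbx6r.L by -1.37, myod1.L by -1.22, mef2d.S by -1.12) and 7 cytoskeletal genes. actn1.L had 9.42 and 8.23 on injected and 9.94 and 8.86 on uninjected sides of double morphants, against 9.64 and 8.29 on injected and 9.84 and 8.33 on uninjected sides of control morphants. actn1.S, its other copy, had 10.57 and 9.78 on injected and 10.74 and 9.78 on uninjected sides of double morphants, against 10.47 and 9.93 on injected and 10.45 and 9.89 on uninjected sides of control morphants. actn4.S, a further non-muscle actinin, had 10.39 and 9.80 on injected and 10.39 and 9.99 on uninjected sides of double morphants, against 10.14 and 9.83 on injected and 10.46 and 10.06 on uninjected sides of control morphants. The replicate 2 arrays were the lower ones in each of these groups of samples. Of the regulatory light chain of smooth muscle and non-muscle myosin, myl9.L had 10.01 and 9.27 on injected and 10.32 and 9.66 on uninjected sides of double morphants, against 9.82 and 9.01 on injected and 9.97 and 9.12 on uninjected sides of control morphants. myl9.S had 7.58 and 6.66 on injected and 7.71 and 6.71 on uninjected sides of double morphants, against 7.50 and 6.61 on injected and 7.36 and 6.32 on uninjected sides of control morphants. In both copies every replicate 2 array lay below every replicate 1 array. myl6.L, a non-muscle essential light chain, had 9.69 and 8.90 on injected and 10.06 and 9.30 on uninjected sides of double morphants, against 9.41 and 8.97 on injected and 9.84 and 9.09 on uninjected sides of control morphants, and its copy myl6.S had 11.21 and 11.04 on injected and 11.64 and 11.45 on uninjected sides of double morphants, against 11.48 and 11.11 on injected and 11.53 and 11.04 on uninjected sides of control morphants. tpm4.L had 9.72 and 9.12 on injected and 10 and 9.66 on uninjected sides of double morphants, against 9.44 and 9.18 on injected and 9.58 and 9.39 on uninjected sides of control morphants. These differences between replicates were smaller than that of tnnt1.S. The higher gene myh10.S had 4.40 and 5.46 on injected and 4.24 and 4.46 on uninjected sides of double morphants, against 4.36 and 5.92 on injected and 4.49 and 5.99 on uninjected sides of control morphants. The count of these 15 was smaller when any injected array was left out, which leaves 1 array in that group. Without either injected control array the count over all genes was smaller too. On uninjected sides alone, a comparison added after seeing the data, tnnt1.S was higher in replicate 2 (3.05, standard error 0.17, adjusted p = 0.000945) and 2 cytoskeletal genes were lower, actn1.L (-1.30, adjusted p = 0.0407) and myl9.S (-1.02, adjusted p = 0.0412), where 1.47% of all genes were called higher and 1.75% lower. The 18 sarcomere and creatine kinase genes had a median of -0.25 there, against a median of -3.34 for the difference of their side effects between the replicates. On uninjected sides tnnt1.S was the only member called in several runs that left out 1 array, which leaves 1 for that side of that replicate.

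Markers of other tissues were read on the same arrays as mean log2 values of lists. The list that defines skeletal muscle, whose genes are all members, averaged 9.0 and 6.92 on injected and 9.37 and 9.34 on uninjected sides of double morphants, against 9.10 and 6.41 on injected and 9.24 and 8.94 on uninjected sides of control morphants. Muscle markers were thus well expressed on all uninjected sides. In replicate 2 the notochord list (9 genes tested) was also lower on the injected side, by -0.93 in double and -1.98 in control morphants, and so was the neural plate list (13 genes), by -0.62 and -0.58. The neural crest list (15 genes) differed by -1.08 in double and -0.34 in control morphants. The epidermis list (11 genes) differed by 0.05 and 0.33 and the endoderm list (13 genes) by 0.35 and 0.27, both higher on the injected side of replicate 2. The blood list (8 genes) differed by -0.62 in replicate 2 and -1.87 in replicate 1 of double morphants, against 0.13 in replicate 2 and 0.23 in replicate 1 of control morphants. The heart field list (11 genes, with mef2d among them) differed by -0.35 in replicate 2 and -1.09 in replicate 1 of double morphants, against -0.29 in both replicates of control morphants, and the pronephros list (5 genes) was between 0.02 and 0.33 in all pairs. In replicate 1 the notochord list was higher on the injected side, by 0.33 in double and 0.05 in control morphants. The epidermis list differed there by -0.254 in double and 0.007 in control morphants, and the endoderm list by -0.373 and 0.005. The neural plate list differed in replicate 1 by -0.294 and -0.145, and the neural crest list by -0.426 and -0.202. The part of these tissues in the values of the muscle genes was not tested.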

How the data were processed

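The deposited values are log2 expression values of 32635 probe sets, made by the authors with GCRMA (version not given in the sources used here). Array medians were 5.09 to 5.19. The authors' filter by MAS5 present calls was replaced by a group mean of at least 4, since probe-level data were not used here. The 4463 probe sets without any variance were left out and the most variable probe set was kept for each gene. Of all probe sets 15505 were listed with 1 gene, 279 with several and 16851 with none, by the platform annotation. limma 3.58.1 in R 4.3.3 modelled a mean for each of the 4 groups, with 4 residual and 2.08 prior degrees of freedom. The call rule was a local fdr below 0.2, whose method was written anew with 120 bins and a spline of 7 degrees of freedom. Comparisons of replicates, and of sides within replicates (3 residual degrees of freedom, prior 3.25), used a Benjamini-Hochberg adjusted p under 0.05. On simulated data the local fdr rule was less strict than its threshold states, with more unchanged genes among its calls. The precision is limited by 2 arrays in each group.

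Sides of one replicate come from the same embryos, by the methods of the study, and were treated as pairs in an alternative. Deviations from the group means correlated by 0.653 between paired sides in double and by 0.767 in control morphants, and by 0.805 between injected sides of both kinds. Alternatives were the replicate block, other call rules, filters, probe sets and normalization, and leaving out single arrays. Genes and lists were chosen, and roles assigned, with earlier results of these data known. All members may be named, and values on every array are given for transcription factors, called members, the 10 largest differences in double morphants with the same direction in both replicates, and their copies. Other genes are named from the list where called. No sequences were printed.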

Additional observations from a re-analysis of the deposited data

Results flagged for a closer look

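The effect of injection differed between the 2 replicates, by the test of that difference, in 5 sarcomere genes, where 0.243% of all genes were called lower. The test was added after seeing the data. With no filter on low values it called no member and 0 of all 10273 genes. The injected minus uninjected difference of replicate 2 minus that of replicate 1 was, on the log2 scale, -4.824 in myh8.L, -4.447 in myh4.L, -3.747 in tnnc2.S, -3.717 in des.1.S and -3.534 in mylpf.L. In each of these genes both injected arrays of replicate 2 lay below the other 6 arrays, in double and in control morphants. This order was seen before the test was added and is no further support for it. As both kinds of morphant enter this test together in each replicate, it compares these experiments and not the morpholinos. No group had enough arrays for a test of single outlying arrays.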

How the results depend on the processing

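With no filter on low values, 64 members were tested, and the counts of called members became 3 in double morphants (lower: myf6.L, tnnc1.S and tpm2.L), 4 for the difference of the injection effects (myh9.S, myf6.L, tnnc1.S and tpm2.L), 1 on injected and 4 on uninjected sides of double against control morphants, 3 within replicate 2, 0 for the difference of the side effects between replicates, 8 for replicate 2 against replicate 1 and 1 on uninjected sides only. Of all 10273 genes, 575 were then called higher and 452 lower in double morphants, and 566 and 615 for the difference. Between the kinds of morphant they were 708 and 833 on injected and 364 and 353 on uninjected sides. In either direction, the share of the members was not above that of all genes in these comparisons. Within replicate 2 the counts were 3 and 26, between replicates 1247 and 1091, and on uninjected sides only 66 and 62. The medians became -0.163 in double morphants and 0.118 on uninjected sides. With the theoretical null 4 members were called in double morphants (myh9.S higher, and ldb3.S, tnnc2.L and tnnt3.S lower) and 1 on injected sides. Of all 8219 genes, 1087 were then called higher and 808 lower in double morphants, and 607 and 758 on injected sides. The share of the members was thus below that of all genes. With the replicate block 0 members were called in the 5 comparisons of group means, and the pairs as a block called 4 in double morphants by adjusted p alone. The block changed no other call. For the difference of the side effects, a mean of at least 6 gave 10 members, all lower, where 40 of all 7024 genes were lower. A local fdr under 0.2 gave 20, all lower, where 397 of all 8219 genes were lower. Among them were the transcription factors mef2d.L, mef2d.S, myf5.L, myod1.S and tbx6r.L. The cause of these changes was not tested, other than that the filter sets which genes are tested. Leaving out single arrays gave ranges of 0 to 6 called members in control morphants, 0 to 1 on injected and 0 to 1 on uninjected sides, 0 to 9 for the difference of the side effects, 11 to 18 within replicate 2, 1 to 4 for the replicates on uninjected sides and 6 to 18 over all groups. The medians of the 43 members ran from -0.716 to -0.127 in double morphants, -1.06 to 0.0264 in control morphants, -0.627 to 0.59 for their difference, -0.549 to 0.632 on injected and 0.0153 to 0.441 on uninjected sides. Where a group was left with 1 array, it was assumed to vary like the others. Of all alternatives run, 153 values stayed close to the main ones and 57 moved. Differences that reach the floor of the scale are limited by it.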

Other observations

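Among the 37 members that were not tested, 5 of the sarcomere reached 2.5 on some array. tpm2.L, a tropomyosin, had 2.41 and 2.27 on injected and 3.19 and 3.53 on uninjected sides of double morphants, against 2.37 and 2.28 on injected and 2.60 and 2.40 on uninjected sides of control morphants. tnnc1.S, the slow and cardiac troponin C, had 2.21 and 2.21 on injected and 3.35 and 3.11 on uninjected sides of double morphants, against 2.21 and 2.19 on injected and 2.36 and 2.21 on uninjected sides of control morphants. Both were thus highest on the uninjected sides of double morphants in each replicate, close to the floor of the scale. myf6.L, a late myogenic factor, had 2.21 and 2.14 on injected and 2.54 and 2.88 on uninjected sides of double morphants, against 2.15 and 2.14 on injected and 2.17 and 2.17 on uninjected sides of control morphants. These genes were singled out after their values were seen, since they were called where no filter on low values was set. In that setting 575 of all 10273 genes were called higher and 452 lower in double morphants. The 3 lower among 64 members were close to that background.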
